A study of Mus musculus with 6 samples.

Results

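The calcium, sodium and TRP channel genes were followed here in mouse pancreatic islets and in MIN6 cells, an insulin-secreting line derived from mouse beta cells. They were chosen by gene symbol alone, as genes of voltage-gated calcium channels (Cacn), sodium channels (Scn), the TRPA, TRPC, TRPM and TRPV channels, ryanodine receptors (Ryr) and inositol trisphosphate receptors (Itpr). The rule found 60 of the 18194 genes with a probe set of their own on the array. It also takes in Trpc4ap, which encodes a protein that associates with a TRPC channel and is no channel itself. A further 10 protein-coding genes whose RefSeq symbols fit the rule, among them Cacnb3 and Itpr1, were not analysed here.

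The series comprised 6 Affymetrix mouse arrays, each of 1 RNA sample. The MIN6 cells carried an adenovirus for miR-7a (AdmiR7a, 2 arrays), for miR-7b (AdmiR7b, 1 array) or, as control, for green fluorescent protein (AdGFP, 1 array). Infection lasted 48 h at a multiplicity of 250, and the medium held 2% serum and 4.5 g/l glucose. The islets were of C57BL/6 background and came from mice whose beta cells had lost miR-7a2 through loxP sites and Cre (KO, 1 array) or from wild-type mice (WT, 1 array). The Cre promoter, the age of the mice, how many were pooled, and whether the WT mice carried Cre or loxP alleles are not given in the sources used here. Separate cultures are not stated for the AdmiR7a pair, so its spread may be technical.

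Beta cells secrete insulin when glucose closes potassium channels and depolarises the membrane. Voltage-gated sodium and calcium channels then fire, calcium enters through the calcium channel pores, and insulin granules fuse. TRP channels add depolarising cation currents, while inositol trisphosphate and ryanodine receptors release calcium from the endoplasmic reticulum.

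The microRNAs carried by the vectors are shown because their shared seed is the basis for treating the 3 miR-7 arrays as a group. Sequences are from RefSeq (GRCm38.p6), 5′ to 3′, with the seed, bases 2 to 8, in capitals.
miR-7a-5p: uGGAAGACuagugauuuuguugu
miR-7b-5p: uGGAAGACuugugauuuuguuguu
The mature miR-7a is encoded at chr7:78888295-78888317 (plus strand, Mir7-2, the locus deleted in the KO) and again at chr13:58392841-58392863 (minus strand, Mir7-1), and miR-7b at chr17:56243017-56243040 (plus strand). Counted from the 5′ end, miR-7b differs from miR-7a by A10U, outside the seed, and is 1 base longer. Mature miR-7 itself was not measured, so neither its rise in MIN6 cells nor its loss in KO islets could be checked on these arrays.

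Levels are log2 probe set intensities after GCRMA, and where a gene had several probe sets, the one whose mean over the 6 arrays was highest stands for it. They are compared between arrays for 1 probe set, not between genes. The arrays had an upper quartile of 7.95 to 8.01 over all probe sets. Beta-cell markers reached a mean of 4 in MIN6 cells (5 of 6) and in islets (6 of 6). The exception in MIN6 cells was the glucose transporter gene Slc2a2, which stood at 2.52 with each miR-7 vector and 3.84 with AdGFP. Some markers of other islet cells were also on in MIN6 cells (Gcg at 12.7 to 13.4). A mean of 4 was reached there by 1 of 2 alpha-cell markers and 3 of 5 delta, PP and epsilon cell markers. Ghrl, Hhex and Irx2 stayed below 4 on every MIN6 array. Acinar markers were below 4 in both islet arrays (0 of 3), whereas endothelial (5 of 5) and immune (4 of 5) markers were above it. In such bulk samples, fewer cells of a type and less RNA per cell cannot be told apart.

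Of the 60 genes, 28 reached a mean of 4 in MIN6 cells or in islets. In MIN6 cells 24 did so and in islets 23, of which 19 did so in both. Ryr2, Scn2a, Trpc4, Trpv2 and Cacng4 reached it in MIN6 cells only, and Cacna2d2, Cacna2d3, Trpm2 and Trpm3 in islets only. Just inside the threshold lay Itpr3 in MIN6 cells (4.43) and Cacnb4 (4.02) and Cacna2d3 (4.04) in islets. Just outside lay Cacna1h, a T-type calcium pore, at 3.76 in MIN6 cells and 3.51 in islets.

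Of the 32 genes below 4 in both systems, 20 stayed within 0.1 of the lowest value of the table, 2.17, on every array, which is only an upper bound on their level. Among these were the muscle and retinal calcium pore genes Cacna1s and Cacna1f, the muscle ryanodine receptor gene Ryr1, the sodium channel gene Scn7a and the TRP genes Trpm1, Trpm6, Trpm8, Trpv4, Trpc5 and Trpc6. The other 12 were a little higher, among them the R-type pore gene Cacna1e (mean 3.49 in MIN6 cells, 2.48 in islets), the T-type gene Cacna1g (3.45 and 3.10), Scn1a and Trpv1.

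**Figure D1:**
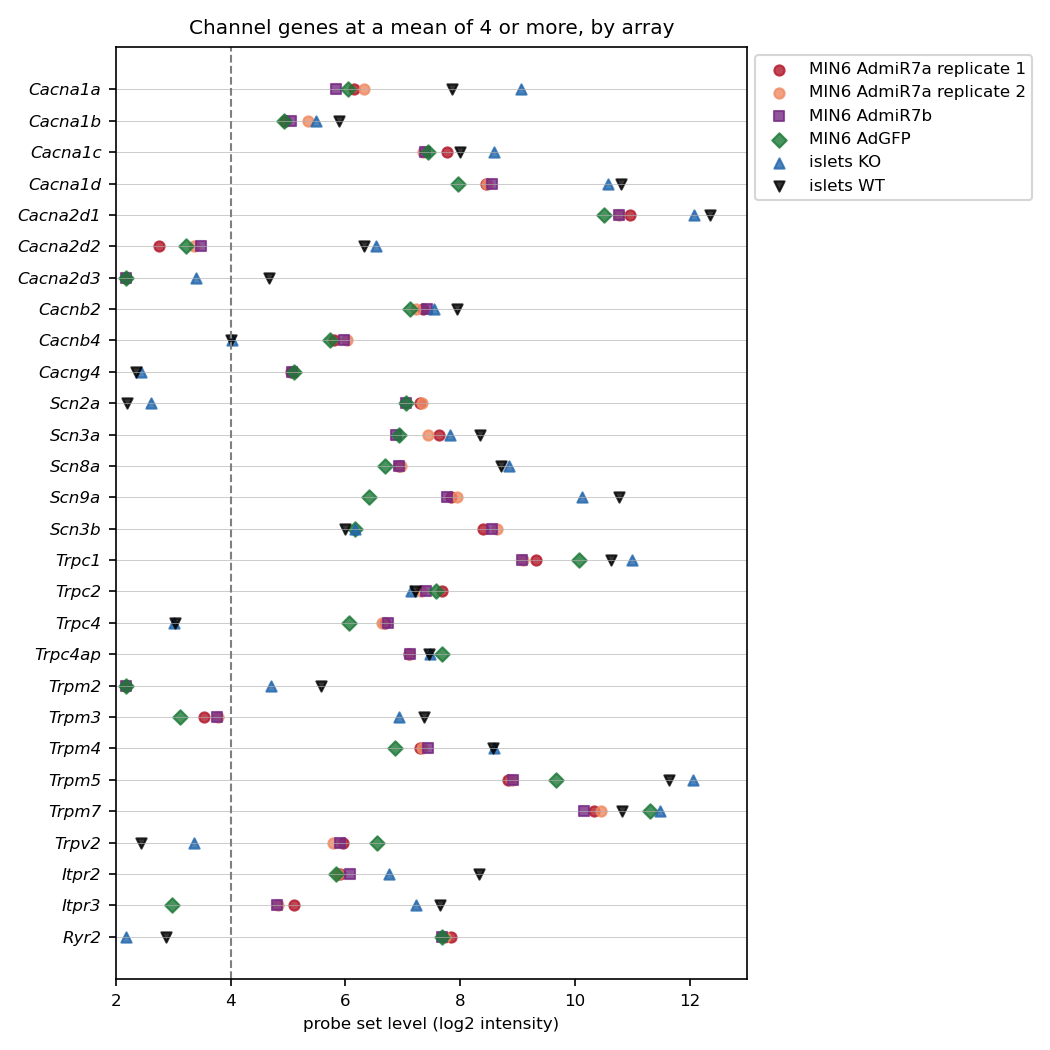
Level of each of the 28 channel genes (rows, grouped by family) on each array (log2 intensity, horizontal axis); each symbol is 1 array and the dashed line marks the level of 4. Ryr2, Scn2a and Trpc4 lie near 6 to 8 on the 4 MIN6 arrays and below 4 on both islet arrays. Trpm2, Trpm3 and Cacna2d2 lie above 4 on both islet arrays and below 4 on the 4 MIN6 arrays.

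With vectors for miR-7a and miR-7b in MIN6 cells, the question was which channel transcripts differed from AdGFP. The 3 miR-7 arrays were set against the AdGFP array with limma over 10367 genes, and "rose" and "fell" mean an adjusted p under 0.05 there (Benjamini-Hochberg, two-sided). Of the 24 channel genes tested, 6 rose (Scn3b, Itpr3, Scn9a, Trpc4, Cacna1d and Trpm4), 5 fell (Trpm7, Trpc1, Trpm5, Trpv2 and Trpc4ap) and 13 did not pass. That is 25% higher and 20.8% lower, where 14.0% of all genes tested rose and 12.1% fell (45.8% called in either direction, against 26.2% of all genes). Itpr3 reached the mean of 4 through the miR-7 arrays alone, so its call was bound to the filter. Over genes at 4 or more both with miR-7 and with AdGFP, 5 of 23 channel genes rose and 5 fell (21.7% each), against 13.7% and 12.2% of 10241 genes. At a log2 size of 1 on all 3 miR-7 arrays, Scn3b, Itpr3 and Scn9a were higher and no channel gene (0) was lower, where 2.14% and 2.10% of all genes were. The channel genes' median difference was 0.18 (log2), against 0.06 over all genes.

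These calls were lost when a miR-7 array was omitted. With no filter on low values, 7 of the 11 also missed the threshold (Itpr3, Cacna1d, Trpc4, Trpm4, Trpc1, Trpm7 and Trpv2), and Scn3b, Scn9a, Trpm5 and Trpc4ap passed it. Without AdmiR7a replicate 1, without AdmiR7a replicate 2 and without AdmiR7b, limma called 0 channel genes each time. Without AdmiR7b it called 0 of all 10367 genes too, so that loss was not particular to the channel genes. All differences also share 1 AdGFP array. The hybridisation controls averaged 11.3, 11.3 and 11.4 on the miR-7 arrays, against 11.1 with AdGFP, and 18S ribosomal RNA stood at 13.6, 13.6 and 13.9, against 14.0 with AdGFP. Their part in the results was not tested.

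Among the pore-forming calcium channel genes only Cacna1d, an L-type pore of beta cells, passed the test. It stood at 8.45 and 8.48 with AdmiR7a and 8.55 with AdmiR7b, against 7.96 with AdGFP. The 3 miR-7 arrays lay within 0.1 of each other, and the gene rose by 0.54 ± 0.08 (log2, SE; adjusted p = 0.0227). This probe set is of a type that can also bind related transcripts, and the other probe set of Cacna1d was below 3 on every MIN6 array. Cacna1c, the other L-type pore gene measured at this level, had 7.76 and 7.35 with AdmiR7a and 7.39 with AdmiR7b, against 7.45 with AdGFP, so the AdGFP value fell inside the range of the miR-7 arrays (0.05 ± 0.20, adjusted p = 0.858). The P/Q-type gene Cacna1a (0.05 ± 0.21, adjusted p = 0.867) and the N-type gene Cacna1b (0.18 ± 0.18, adjusted p = 0.492) did not pass either. The Cacna1b probe set is also of the type that can bind related transcripts.

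No auxiliary calcium channel subunit passed. Cacna2d1, whose protein helps carry the pores to the membrane and binds gabapentin, had 10.97 and 10.76 with AdmiR7a and 10.78 with AdmiR7b, against 10.52 with AdGFP (0.32 ± 0.11, adjusted p = 0.116). The cytosolic subunit genes Cacnb2 (0.21, adjusted p = 0.201) and Cacnb4 (0.20, adjusted p = 0.289) and the gamma subunit gene Cacng4 (-0.02, adjusted p = 0.839) lay closer to AdGFP.

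The sodium channel genes included the largest difference of the set. Scn3b, an auxiliary subunit that alters how sodium channels open and reach the membrane, stood at 8.39 and 8.64 with AdmiR7a and 8.55 with AdmiR7b, against 6.17 with AdGFP. All 3 miR-7 arrays were above AdGFP by over 2, and the gene rose 5.13-fold (2.36 ± 0.12, log2; adjusted p = 0.0103). A second probe set of Scn3b was lower in level and less even, with 4.06, 4.07 and 5.21 on the miR-7 arrays in the same order and 3.66 with AdGFP. It too reached 4 in MIN6 cells through the miR-7 arrays alone.

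Scn9a, the pore that carries much of the sodium current of mouse beta cells and is known from pain-sensing neurons, had 7.83 and 7.95 with AdmiR7a and 7.78 with AdmiR7b, against 6.41 with AdGFP. It rose 2.71-fold (1.44 ± 0.10, adjusted p = 0.0115). This probe set is also of the type that can bind related transcripts. The other detected probe set of Scn9a, which is not of that type, had 4.91, 4.90 and 4.88 on the miR-7 arrays and 3.85 with AdGFP. It reached 4 in MIN6 cells through the miR-7 arrays alone. Its difference of 1.04 is thus limited by the background on the AdGFP side.

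The other sodium pore genes did not pass. Scn8a had 6.94, 6.96 and 6.93 on the miR-7 arrays, against 6.69 with AdGFP, a small but even difference (0.25 ± 0.07, adjusted p = 0.0681). Scn3a, which also carries sodium current in islet cells, had 7.63 and 7.44 with AdmiR7a but 6.88 with AdmiR7b, against 6.93 with AdGFP. The AdmiR7b array thus lay with AdGFP for Scn3a and the AdmiR7a arrays above both (pooled 0.38 ± 0.33, adjusted p = 0.429). Scn2a showed the same layout on a smaller scale, with 7.30 and 7.34 with AdmiR7a and 7.06 with both AdmiR7b and AdGFP (adjusted p = 0.410).

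Of the TRPM genes, all 3 tested passed, in both directions. Trpm7, a cation channel fused to a kinase that serves magnesium and zinc balance, had 10.33 and 10.45 with AdmiR7a and 10.17 with AdmiR7b, against 11.31 with AdGFP, and fell by 0.997 ± 0.136 (adjusted p = 0.0204). Its 3 other probe sets were lower too, by 0.84, 0.61 and 0.30. Trpm5, a calcium-activated cation channel known from taste cells and from the glucose response of islets, had 8.84 and 8.90 with AdmiR7a and 8.91 with AdmiR7b, against 9.67 with AdGFP, and fell by 0.79 ± 0.08 (adjusted p = 0.0134). Trpm4, a related calcium-activated channel, went the other way, with 7.30 and 7.33 with AdmiR7a and 7.44 with AdmiR7b, against 6.87 with AdGFP (rose by 0.49 ± 0.09, adjusted p = 0.0327).

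The TRPC genes split likewise. Trpc1, a subunit linked to refilling of calcium stores, had 9.32 and 9.10 with AdmiR7a and 9.07 with AdmiR7b, against 10.08 with AdGFP, and fell by 0.91 ± 0.13 (adjusted p = 0.0216). Trpc4, a channel opened by G protein-coupled receptors, had 6.68 and 6.63 with AdmiR7a and 6.75 with AdmiR7b, against 6.07 with AdGFP, and rose by 0.62 ± 0.08 (adjusted p = 0.0201); with the mean of its probe sets it stood at 0.32 (adjusted p = 0.0797). Trpc4ap fell by 0.56 ± 0.07 (adjusted p = 0.0178), with 7.11, 7.11 and 7.13 on the miR-7 arrays, against 7.68 with AdGFP. Trpc2, whose probe sets cannot be fully separated from transcripts that join it with a neighbouring gene, was at -0.10 ± 0.17 (adjusted p = 0.679).

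Trpv2, a cation channel that insulin and growth factors move to the membrane, had 5.95 and 5.79 with AdmiR7a and 5.91 with AdmiR7b, against 6.56 with AdGFP. The miR-7 arrays did not overlap with AdGFP, and the gene fell by 0.67 ± 0.10 (adjusted p = 0.0217).

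Of the genes that release stored calcium, Itpr3, an inositol trisphosphate receptor, had 5.10 and 4.83 with AdmiR7a and 4.81 with AdmiR7b, against 2.97 with AdGFP. The AdGFP value was near the background, and Itpr3 passed the filter through the miR-7 arrays alone, so its difference (1.95 ± 0.15, log2; adjusted p = 0.0126) is set by the background on one side and is no measured fold. Itpr2, its relative, had 5.91 and 5.87 with AdmiR7a and 6.08 with AdmiR7b, against 5.84 with AdGFP (0.11 ± 0.11, adjusted p = 0.502). The ryanodine receptor gene Ryr2 had 7.85 and 7.73 with AdmiR7a and 7.69 with both AdmiR7b and AdGFP (adjusted p = 0.635).

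**Figure D2:**
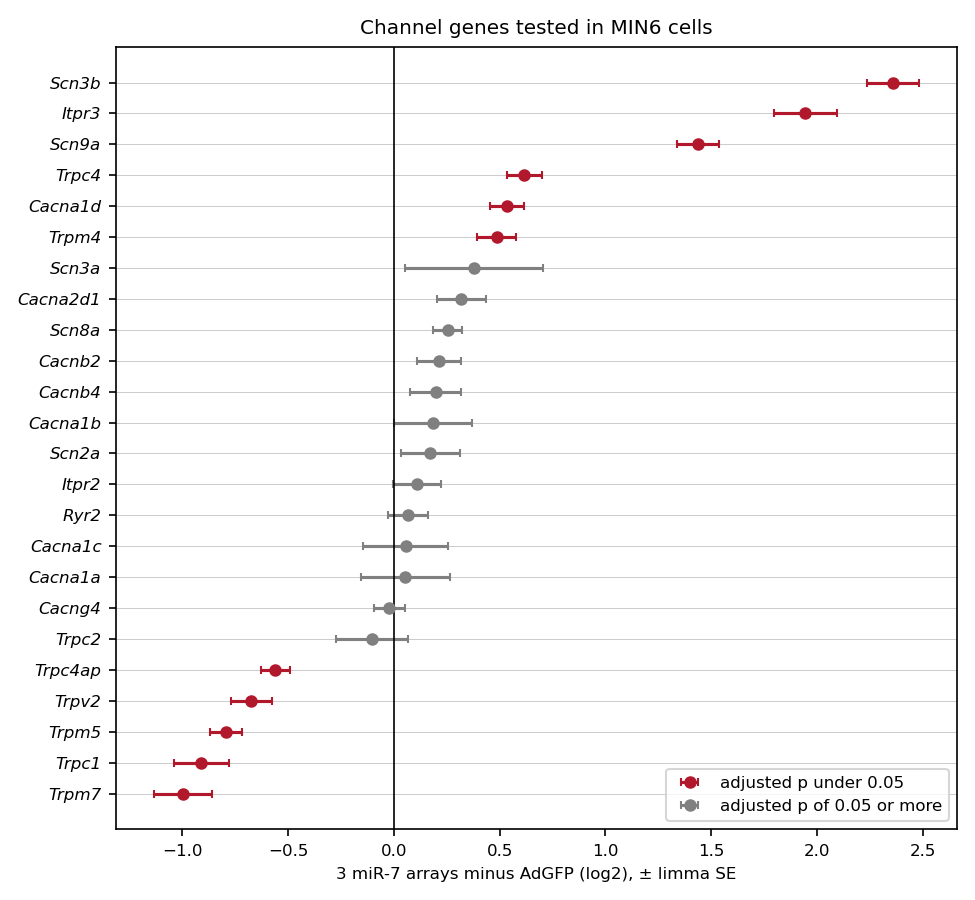
Mean of the 3 miR-7 arrays minus AdGFP (log2, horizontal axis) with the limma SE as bars, for the 24 channel genes tested in MIN6 cells. Scn3b (2.36), Itpr3 (1.95, with AdGFP near the background) and Scn9a (1.44) stand apart on the right, and Trpm7 (-0.997) and Trpc1 (-0.91) lie lowest.

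Some beta-cell marker genes moved with these differences. Pdx1 (-0.99), Nkx6-1 (-0.76) and Ucn3 (-1.15) fell in the same fit, and so did the glucagon gene Gcg (-0.53, adjusted p = 0.0426), while the endothelial marker Esam (0.79) rose. Plvap had 4.28, 4.36 and 4.42 on the miR-7 arrays, against 3.499 with AdGFP, and like Itpr3 reached 4 through the miR-7 arrays alone. The other 3 endothelial markers, Pecam1, Cdh5 and Kdr, stayed below 4 on every MIN6 array. Ins2 was at 0.06 (adjusted p = 0.723) and Iapp, which encodes amylin, at -0.01 (adjusted p = 0.912). The part of such shifts in the channel results was not tested.

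The vectors were also compared with each other, to ask whether the 2 miR-7 sequences differ in effect. In limma with a mean per vector, AdmiR7b minus AdmiR7a gave 0 calls among the 24 channel genes and called 0% of all genes. At an unadjusted p under 0.05 were 2 channel genes, where 597 of all 10367 genes were. These 2 were Scn3a, lower with AdmiR7b by the largest margin (-0.66, unadjusted p = 0.0196), and Scn2a (-0.26, unadjusted p = 0.0462), both at adjusted p = 0.739. AdmiR7a alone against AdGFP also gave 0 calls in limma among the channel genes and 0 among all 10367 genes. That fit has 1 residual degree of freedom, and its count rose to 12 channel genes after renewed quantile normalization. It rose to 11 after centring and 10 with a filter at 6. The counts over all genes under these settings are not given here.

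The AdmiR7b array had no replicate and its difference from AdGFP is given by size. At a log2 size of 1, 3 channel genes were higher (Scn3b 2.38, Scn9a 1.36 and, from an AdGFP value near the background, Itpr3 1.84) and 2 lower (Trpm7 -1.15 and Trpc1 -1.01), where 3.82% of all genes were higher and 4.36% lower. With AdmiR7a the same genes differed from the same AdGFP array by 2.35, 1.48, 2.00, -0.92 and -0.86.

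A list of other genes that handle calcium was read in the same way. Of 33 tested, 6 rose and 7 fell, where 14.0% and 12.1% of all genes did, with a median of -0.03. Atp2b1, Atp2c1, Stim1 and Slc8b1 did not pass. The store sensor gene Stim2 fell by 0.92, the reticulum pump genes Atp2a3 and Atp2a2 fell by 0.69 and fell by 0.36, the plasma membrane pump gene Atp2b2 fell by 0.52, and the sodium-calcium exchanger genes Slc8a1 and Slc8a3 fell by 0.84 and fell by 0.82. Vdac1, the outer mitochondrial membrane channel gene, fell by 1.10, on a probe set of the type that can also bind related transcripts. Those that rose were the calmodulin kinase genes Camk2g (0.86) and Camk2b (0.69), the mitochondrial uptake regulator gene Micu2 (0.62), the reticulum potassium channel gene Tmem38a (0.55), the calcineurin gene Ppp3cb (0.48) and Unc80 (0.44), a partner of the sodium leak channel.

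The islets address the loss of miR-7a2 from beta cells. With 1 array per genotype there is no test. Of 23 channel genes at a mean of 4 in islets, 1 was at least 1 (log2) higher in KO and 2 at least 1 lower, where 1.61% of all genes were higher and 1.23% lower. Of the 2, Cacna2d3 reached the mean of 4 through WT alone. Over genes at 4 or more on both islet arrays, 1 of 22 channel genes was higher and 1 lower (4.55% each), against 1.40% and 0.93% of 10405 genes. The poly-A control RNAs averaged 8.37 on the KO and 9.50 on the WT array, and 18S ribosomal RNA 14.2 and 13.8; their part in the islet differences was not tested. In all 11 were higher in KO and 12 lower, where 45.5% of all genes were higher. Of the 23, 15 differed by less than 0.5, against 9272 of 10553 over all genes. The median was -0.07, against -0.02 over all genes.

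Itpr2 was lowest in KO relative to WT. It had 6.76 in KO and 8.32 in WT islets, 2.95-fold lower in KO (-1.56). Of its 5 other probe sets, 3 were lower in KO too, with 5.49 in KO and 7.33 in WT, 2.96 and 5.29, and 2.54 and 3.76, and 2 had the same value on both arrays (3.93 and 2.17). The first 2 of these 4 lower probe sets are of the type that can bind related transcripts, and the other 2 are not. Without that type, a setting chosen after seeing the data, Itpr2 stood at 3.93 in islets and was not counted. Probe sets of a gene share the RNA and are no replicates. Among marker genes, the endothelial gene Pecam1 (5.19 in KO, 6.30 in WT) and the acinar gene Prss2 (2.88 and 3.78, both below 4) were also lower in KO and the ductal gene Krt19 higher (4.45 and 2.68). The whole lists differed less, with median KO minus WT of -0.20 for 5 endothelial, 0.01 for 3 acinar and 0 for 3 ductal genes. Their part in the Itpr2 difference was not tested.

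Cacna2d3, an auxiliary calcium channel subunit, was lower in KO (3.397 in KO, 4.67 in WT, a difference of -1.28), on values at the edge of the background that reached the threshold through WT alone. Cacna1a, the P/Q-type pore, was higher, at 9.07 in KO and 7.85 in WT islets (1.22). A second Cacna1a probe set ran the other way (3.84 in KO, 4.58 in WT), and with the mean of its probe sets the difference was 0.20.

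Probe sets disagreed for other channel genes as well. For Cacna2d1 the probe set used here had 12.09 in KO and 12.35 in WT, while another had 8.04 in KO and 6.47 in WT, a difference of 1.57. For Trpm7 the difference was 0.66 (11.49 in KO, 10.83 in WT), and across its other probe sets it ran between -0.22 and 2.33. The actin control, which has probe sets at both ends of the transcript, was higher at the 3′ than at the 5′ end by 1.43 to 1.48 in MIN6 cells and by 2.65 in KO and 2.77 in WT islets. Its part in these differences was not tested.

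**Figure D3:**
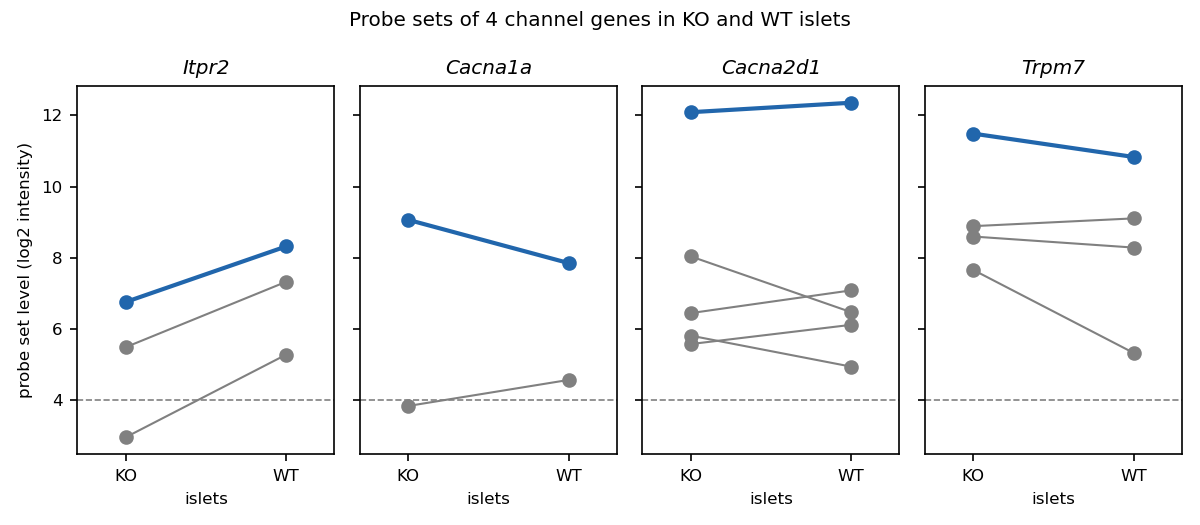
Level (log2 intensity, vertical axis) in KO and WT islets of every probe set of Itpr2, Cacna1a, Cacna2d1 and Trpm7 that reached 4 on either islet array; each line is a probe set, blue for the probe set that stands for the gene, and the dashed line marks 4. All lines of Itpr2 are lower in KO, whereas those of Cacna1a, Cacna2d1 and Trpm7 run in both directions.

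Among the sodium channel genes, Scn9a had 10.12 in KO and 10.77 in WT islets (-0.65) and Scn3a 7.83 and 8.34 (-0.52). Scn8a (0.14) and Scn3b (0.18) differed by less. Of the TRP genes, Trpm5 had 12.05 in KO and 11.64 in WT islets (0.41) and Trpc1 10.99 and 10.63 (0.36). Trpm2, a channel opened by ADP-ribose, had 4.70 in KO and 5.58 in WT islets (-0.88), and Trpm3, a channel opened by the steroid pregnenolone sulphate, 6.93 and 7.37 (-0.44). Another Trpm3 probe set ran the other way (5.47 in KO, 4.93 in WT, 0.53), and a further one, below 4 on both islet arrays, was at -0.47. Trpm4 (0.03) and the L-type pore gene Cacna1d (-0.23) differed little, while Cacna1c had 8.58 in KO and 7.999 in WT islets (0.59). None of the calcium handling genes outside the channel set was past a log2 size of 1 (0 of 32, at most 0.89 for Tmem38b).

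Set side by side, the genes called in MIN6 cells mostly had a KO minus WT difference of the other sign (9 of 11, where 67.4% of all called genes did). Among the 5 that fell with miR-7, all were higher in KO, as were 852 of all 1257 genes that fell. The 5 were Trpv2 (higher by 0.93), Trpm7 (0.66), Trpm5 (0.41), Trpc1 (0.36) and Trpc4ap (0.02). Among the 6 that rose, Scn9a (-0.65), Itpr3 (-0.42), Cacna1d (-0.23) and Trpc4 (-0.01) were lower in KO, and Scn3b (0.18) and Trpm4 (0.03) higher. Trpv2 and Trpc4 lay below 4 in islets. Without these, 7 of 9 had opposite signs, where 68.4% of all genes called in MIN6 cells and measured in islets did, so the channel genes were near the background in this.

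**Figure D4:**
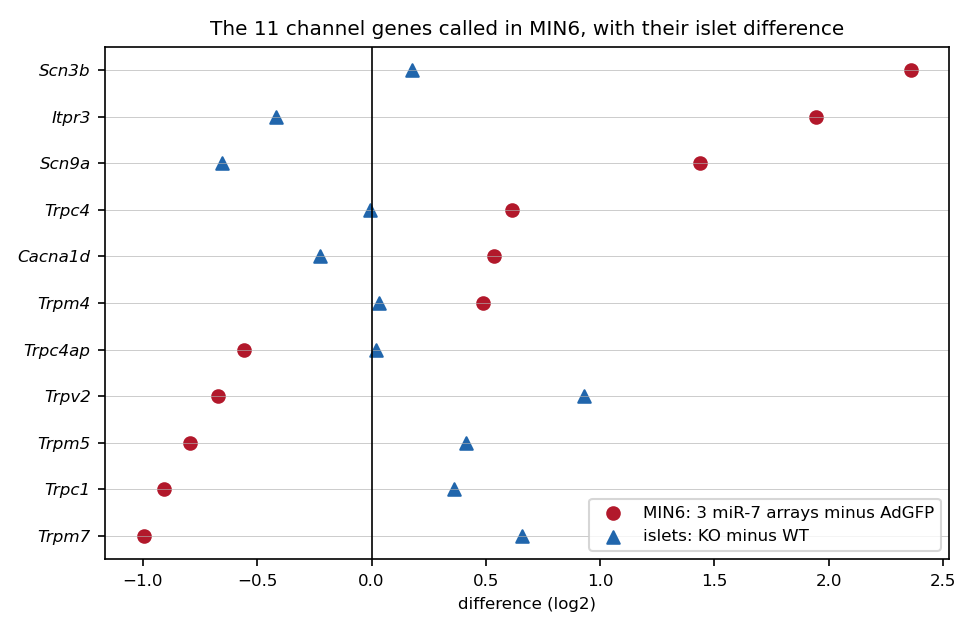
For the 11 channel genes called in MIN6 cells, the difference of the 3 miR-7 arrays from AdGFP (circles) and the KO minus WT difference in islets (triangles), both in log2 on the horizontal axis. The triangles lie between -0.65 and 0.93, and the 5 genes that fell in MIN6 cells all have a triangle right of 0. That of Trpc4ap is at 0.02, and Trpv2 and Trpc4 lay below 4 in islets.

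Between MIN6 cells and islets many channel genes differed in level. The mean of the 4 MIN6 arrays was at least 1 above that of the 2 islet arrays, with no overlap of arrays, for 7 of 28 genes (25%), and at least 1 below for 14 (50%), where 19.6% and 21.7% of all genes were. Of the 7, Ryr2, Scn2a, Trpc4, Trpv2 and Cacng4 reached 4 in MIN6 cells only. Of the 14, Cacna2d2, Cacna2d3, Trpm2 and Trpm3 reached it in islets only. Each entered through the system where it was higher, so the direction of its difference was bound to the filter. Over all genes, 602 of 11155 reached 4 in MIN6 cells only and 788 in islets only. The median was -1.11, against 0.00 over all genes. Tissue, infection and handling cannot be told apart in this comparison, and no test was made. The control signals differed too: hybridisation controls averaged 11.1 to 11.4 in MIN6 cells against 9.34 in KO and 9.35 in WT islets, poly-A controls 6.67 to 6.87 against 8.37 and 9.50, and Gapdh was higher at the 3′ than at the 5′ end by 0.83 in KO and 0.68 in WT islets but by at most 0.05 in MIN6 cells. Their part in the level differences was not tested. When all of a gene's probe sets were averaged, 5 genes were higher and 7 lower.

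Higher in MIN6 cells were the calcium release channel gene Ryr2, at 7.69 to 7.85 in MIN6 cells against 2.17 in KO and 2.88 in WT islets, and the neuronal sodium pore gene Scn2a, at 7.06 to 7.34 against 2.61 and 2.19. Trpc4 had 6.07 to 6.75 in MIN6 cells against 3.02 on both islet arrays, and Trpv2 5.79 to 6.56 against 3.36 in KO and 2.43 in WT islets. Islet values below 4 are near the background, so these differences are limited by it. Cacng4 (2.69) and Cacnb4 (1.87) were also higher in MIN6 cells. Scn3b was higher by 1.86 on average, but AdGFP (6.17) lay by the islets (6.16 in KO, 5.99 in WT) and only the miR-7 arrays above them.

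Lower in MIN6 cells were 4 TRPM genes. Trpm5 had 8.84 to 9.67 in MIN6 cells against 12.05 in KO and 11.64 in WT islets, and Trpm3 3.11 to 3.78 against 6.93 and 7.37. Trpm2 stood at 2.17 to 2.18 in MIN6 cells, the floor of the table, against 4.70 in KO and 5.58 in WT islets, and Trpm4 was lower by 1.35. The sodium pores Scn9a and Scn8a (-2.95 and -1.90), the calcium pores Cacna1a and Cacna1d (-2.37 and -2.34) and the subunits Cacna2d1, Cacna2d2 and Cacna2d3 (-1.46, -3.23 and -1.86) were lower as well. So were Itpr3, Itpr2 and Trpc1 (-3.01, -1.62 and -1.42). The probe sets of Cacna2d1 disagreed in this. Another was higher in MIN6 cells (mean 8.07, against 6.77 in islets), and a further probe set was nearly level (7.32 and 7.26). Its remaining probe sets were lower in MIN6 cells (-0.85 and -1.82). For Scn9a, which rose with miR-7, AdGFP minus WT was -4.35. Immune and stellate markers were below 4 on all MIN6 arrays but not in islets (4 of 5 and 2 of 5 genes at 4 or more), and their part in the channel differences was not tested.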

How the data were processed

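The authors deposited log2 probe set values made with GCRMA and the affy package, per the submitters' processing notes, which give no versions. GCRMA subtracts a background estimated from each probe's bases and then equalizes the distributions of the arrays. Whether other arrays were included is not given in the sources used here. Of 45101 probe sets, 34958 carried 1 gene symbol in the platform annotation, 932 several and 9211 none. Channel genes held 139 probe sets, and 20 genes had 1 only. All 60 were matched to RefSeq by Entrez identifier. The array number, 6, limits the precision.

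MIN6 genes with a mean below 4 were left out, and lmFit and eBayes of limma 3.58.1 (R 4.3.3) were fitted to all 10367 others. The pooled fit (3 miR-7 arrays against AdGFP, 2 residual degrees of freedom) and the fit per vector (1) assume that the lone arrays vary like the rest. The pooled fit was first tested on simulated arrays. With 1 array per group, genes were counted by a log2 difference of 1. Genes named with array values are the channel genes that passed, those past that size and a list of beta-cell channels. Members, lists and the rule were chosen with earlier results of these data known. Alternatives varied filter, probe set, normalization and size, and left out each miR-7 array.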

Additional observations from a re-analysis of the deposited data

How the results depend on the processing

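No paired analysis was possible because only AdmiR7a has more than 1 array. For the pooled fit, leaving out a miR-7 array gave 0 to 0 channel genes higher and lower, while the differences of the 11 called genes kept their sign (Scn3b 2.30 to 2.43, Trpm7 -1.07 to -0.92). With no filter 4 rose (Scn3b, Scn9a, Scn8a and Trpc7) and 3 fell (Trpm5, Trpc4ap and Scn1a), of which Trpc7 and Scn1a lie below the filter. For each of these 2 genes the 3 miR-7 arrays had the same value, and Trpc7 differed from AdGFP by only 0.018. Without probe sets that can bind several transcripts, a setting chosen after seeing the data, 5 rose. Cacna1d left the tested set there, as its other probe set had a MIN6 mean of 2.87, below the filter. The causes of the other changes were not tested. A log2 size of 1 on all 3 arrays gave 3 higher and 0 lower. AdmiR7a alone gave 2 calls with no filter, 10 with a filter at 6, 4 with averaged probe sets, 12 with renewed quantile normalization and 11 with centring, in place of 0; the cause was not tested. AdmiR7b by size gave 5 higher and 4 lower at 0.58, and 0 lower with averaged probe sets. A limma contrast gave 0 calls among the channel genes and 0 among all genes. KO minus WT gave 3 higher and 4 lower at 0.58, 0 higher with averaged probe sets, 1 lower with a filter at 6 and 1 lower without probe sets that can bind several transcripts. MIN6 minus islets gave 7 lower with averaged probe sets and 8 at a size of 2. None of the 11 called channel genes changed sign under these settings (0), while Cacng4, Cacna1c and Cacna1a, which were not called and lay near 0, each did under 1 setting (0.01 with renewed quantile normalization, -0.08 without AdmiR7a replicate 1 and -0.05 without AdmiR7a replicate 2). The background limits Itpr3, Cacna2d3 and the genes below 4 in 1 system. Counts over all genes under most of these settings are not given here, so the changed counts are not read as particular to the channel genes.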

Other observations

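Below the filter, the capsaicin receptor gene Trpv1 had 2.59 and 2.76 with AdmiR7a and 3.35 with AdmiR7b, against 4.18 with AdGFP, and 2.17 on both islet arrays. The sodium pore gene Scn1a had 3.06 on each miR-7 array, against 3.91 with AdGFP. Both lay lower on all 3 miR-7 arrays, but with MIN6 means of 3.22 and 3.27 they were not tested.

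By RefSeq gene order, 5 sodium pore genes lie near each other on mouse chromosome 2: Scn3a next to Scn2a and, after 3 other coding genes, Scn1a, Scn9a and Scn7a in a row. Within this group Scn9a rose with miR-7, Scn1a stood lower than with AdGFP, and Scn7a was at the floor of the table on every array. In islets Scn9a and Scn3a were well above 4, while Scn2a (2.61 in KO, 2.19 in WT), Scn1a (2.92 and 2.83) and Scn7a were below it.

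A value above 4 need not vary with RNA. A probe set of Cacna1b that does not stand for the gene in the main results stood at 4.84 on 5 of 6 arrays.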
